A study of Mus musculus with 4 samples.

Results

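The DNA around Sphk2 on mouse chromosome 7 was examined for open chromatin that differed between wild-type (WT) cells and cells lacking Sphk2. The peaks of 4 ATAC-seq libraries were merged wherever they overlapped by at least 1 bp, and every merged region on chromosome 7 with its midpoint between 30 and 110 Mb (build mm10) was taken, whichever libraries called it. This gave 1369 regions of 45299 in all. The remaining 1229 regions of chromosome 7 served as the control, and the other chromosomes held 42701. The interval holds 955 protein-coding genes and runs on both sides of Sphk2, whose midpoint lies at 45.71 Mb.

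The study injected EL4 cells, a lymphoma line of mouse T cells, into WT mice and Sphk2 knockout (KO) mice and collected Gr1+CD11b+ myeloid-derived suppressor cells (MDSCs) from the ascites after 14 days. Each library was made from 20000 sorted cells with 40% of the usual amount of Tn5 transposase, and there were 2 libraries per genotype, so every comparison is 2 WT against 2 Sphk2 KO libraries from tumour-bearing mice. The labels call them biological replicates and do not tie them to animals, so the spread between them may be partly technical. The labels give neither the strain or age of the mice, nor how the knockout allele was built and bred, nor whether the WT mice were littermates.

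ATAC-seq cuts DNA with a transposase wherever chromatin is open, so a peak marks an accessible promoter, enhancer or other regulatory site. Sphk2 encodes a sphingosine kinase that makes sphingosine-1-phosphate. Genes that lie close together on a chromosome are inherited together, and a knockout allele made in one strain and crossed to another keeps DNA of the first strain on both sides of the gene. In these samples the loss of Sphk2 and any such difference in flanking DNA fall on the same libraries and cannot be told apart.

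The promoter windows printed first are a selection of those under the regions named below. The second Sphk2 start, Trim5, Trim12a and Trim30d had peaks in KO libraries only, Trim12c, Trim30a and Trim21 ranked higher in WT, and the upstream Sphk2 start is given for comparison. They are the RefSeq windows of GRCm38.p6 from 250 bases before to 50 bases after a start, written 5′ to 3′ on the minus strand of chromosome 7. In the 2 Sphk2 windows, capitals mark GGGCGG, the GC box bound by Sp-family factors. In the 6 Trim windows, capitals mark GAAA followed by any 2 bases and GAAA again, the core of the interferon-stimulated response element. Both strands were searched, so the reverse complement is marked too, and overlapping matches are marked as 1 run. The windows at the Trim30c and Trim68 starts, which also ranked higher in WT, hold no match to the GAAA motif and are not printed. The Trim genes encode RING-type ubiquitin ligases, and the Trim5, Trim12 and Trim30 cluster includes antiviral and interferon-inducible members.
Sphk2, second start, minus strand, chr7:45715158-45715457: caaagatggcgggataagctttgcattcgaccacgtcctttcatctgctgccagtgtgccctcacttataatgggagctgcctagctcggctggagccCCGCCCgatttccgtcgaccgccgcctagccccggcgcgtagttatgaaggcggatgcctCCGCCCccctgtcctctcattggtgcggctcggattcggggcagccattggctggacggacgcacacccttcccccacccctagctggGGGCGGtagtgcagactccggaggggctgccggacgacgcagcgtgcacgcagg
Sphk2, upstream start, minus strand, chr7:45717953-45718252: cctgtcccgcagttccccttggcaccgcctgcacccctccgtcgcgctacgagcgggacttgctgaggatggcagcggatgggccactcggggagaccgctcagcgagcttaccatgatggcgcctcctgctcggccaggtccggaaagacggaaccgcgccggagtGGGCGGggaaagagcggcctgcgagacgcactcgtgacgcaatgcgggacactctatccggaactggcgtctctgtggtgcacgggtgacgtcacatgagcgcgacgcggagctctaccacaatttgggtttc
Trim5, minus strand, chr7:104288057-104288356: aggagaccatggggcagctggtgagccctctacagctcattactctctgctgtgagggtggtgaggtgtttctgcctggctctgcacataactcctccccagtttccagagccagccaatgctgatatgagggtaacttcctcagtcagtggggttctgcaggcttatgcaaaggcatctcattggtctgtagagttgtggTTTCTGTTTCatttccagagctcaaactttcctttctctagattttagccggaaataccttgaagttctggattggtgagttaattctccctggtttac
Trim12a, minus strand, chr7:104315446-104315745: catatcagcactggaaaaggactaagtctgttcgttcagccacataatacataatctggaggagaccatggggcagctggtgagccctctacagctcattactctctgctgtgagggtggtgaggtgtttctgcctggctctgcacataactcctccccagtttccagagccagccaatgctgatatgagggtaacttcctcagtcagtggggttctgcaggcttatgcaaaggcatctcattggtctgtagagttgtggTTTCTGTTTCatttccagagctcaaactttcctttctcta
Trim12c, minus strand, chr7:104353300-104353599: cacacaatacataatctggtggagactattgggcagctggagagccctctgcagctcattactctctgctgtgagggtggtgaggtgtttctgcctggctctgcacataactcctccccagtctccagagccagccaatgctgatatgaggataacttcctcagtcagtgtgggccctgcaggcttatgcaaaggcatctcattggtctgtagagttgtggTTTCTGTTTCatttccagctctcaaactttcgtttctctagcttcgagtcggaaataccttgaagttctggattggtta
Trim30a, minus strand, chr7:104446076-104446375: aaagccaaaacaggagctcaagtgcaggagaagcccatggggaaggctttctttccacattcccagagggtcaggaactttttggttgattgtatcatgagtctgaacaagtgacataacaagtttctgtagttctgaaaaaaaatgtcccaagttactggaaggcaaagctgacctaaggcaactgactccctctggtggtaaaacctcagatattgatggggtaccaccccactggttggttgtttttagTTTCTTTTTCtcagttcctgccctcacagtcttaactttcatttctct
Trim30d, minus strand, chr7:104507800-104508099: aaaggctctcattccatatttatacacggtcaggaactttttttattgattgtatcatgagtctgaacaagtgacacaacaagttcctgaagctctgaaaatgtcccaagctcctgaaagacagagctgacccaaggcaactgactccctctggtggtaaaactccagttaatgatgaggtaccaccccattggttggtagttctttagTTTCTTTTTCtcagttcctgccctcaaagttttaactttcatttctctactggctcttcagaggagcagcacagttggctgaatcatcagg
Trim21, minus strand, chr7:102565433-102565732: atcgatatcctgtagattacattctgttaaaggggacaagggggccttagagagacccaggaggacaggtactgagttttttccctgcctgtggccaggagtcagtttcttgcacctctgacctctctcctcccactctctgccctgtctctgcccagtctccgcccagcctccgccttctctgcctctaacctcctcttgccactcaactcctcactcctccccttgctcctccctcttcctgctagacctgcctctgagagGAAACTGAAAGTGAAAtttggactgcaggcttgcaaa

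The libraries held 25877428 to 34443062 retained fragments and 20759 to 31843 peaks, with both KO libraries below both WT libraries in fragments and peaks. The mean fragment size given in the file headers was 156 bp and 177 bp in WT and 179 bp and 193 bp in KO. Of the listed markers, 6 of 6 pan-myeloid genes had a peak no more than 1 kb from either gene end in every library, granulocytic genes had one at 6 to 7 of 10 and monocytic genes at 3 to 6 of 8, with Ly6g at none. T-cell or EL4 genes had a peak at 2 to 5 of 10, B-cell genes at 0 of 8 and natural killer cell genes at 0 of 4. Monocytic genes were counted at 5 and 6 in WT and at 3 and 4 in KO, and T-cell genes at 3 and 5 in WT and at 3 and 2 in KO. The part of depth, fragment size and cell mixture in the results below was not tested.

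Open chromatin found only in KO cells was more frequent around Sphk2 than on the rest of the chromosome. A region was called KO-only when both KO libraries and neither WT library had a peak there. Of the 1369 regions of the interval, 26 were KO-only, or 1.90%, against a background of 0.605% over all 45299 merged regions. The rest of chromosome 7 had 3 of 1229, or 0.244%. Regions called in both WT libraries and neither KO library numbered 64 in the interval, or 4.67%, against a background of 5.43% and against 4.56% on the rest of the chromosome. The WT-only share was thus near the background while the KO-only share was above it. Regions called in all 4 libraries made up 504 of the 1369, or 36.8%, against a background of 37.5% and against 52.2% on the rest of chromosome 7. Regions seen in 1 library alone made up 14.1% of the interval for WT replicate 1 and 11.2% for WT replicate 2, against 14.8% and 14.5% over all regions. For KO replicate 1 and KO replicate 2 they made up 5.26% and 12.2%, against 3.81% and 8.80%, so the interval was above the whole in both KO libraries.

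The KO-only count depends on list length and on single libraries. With the same number of top peaks taken from every library the interval had 42 KO-only regions, 5.02%, against 1.96% over all regions, and WT-only regions fell to 30, or 3.59% against 3.56%. Without WT replicate 2 there were 44 KO-only regions, or 3.61% against 1.81%. Leaving out KO replicate 1 gave 193, or 14.9% against 9.79%, and leaving out KO replicate 2 gave 102, or 8.40% against 4.93%, since 1 library then stands for the genotype. In all of these settings the KO-only share of the interval was above that over all regions. The WT-only count was 223 without WT replicate 1, 259 without WT replicate 2 and 160 without KO replicate 2, or 18.8%, 21.2% and 13.2%, against 23.5%, 23.8% and 13.8% over all regions.

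The strongest KO-only regions lay in this interval. The −log10 q is the peak caller's own adjusted significance of a peak over its local background, and strength here means this value. It is not the fold enrichment, a separate measure. When both KO peaks had to reach a −log10 q of 20, 6 of the 6 KO-only regions in the data were in the interval. At 10 the count was 11 of 17, and at 5 it was 15 of 73. The same cuts applied to WT-only regions gave 2 of 28, 10 of 240 and 34 of 1001. The interval holds 3.02% of all merged regions, 9.49% of the KO-only regions and 2.60% of the WT-only regions. The 6 regions at a −log10 q of 20 include that at the second start of Sphk2 itself, that at Trim12a and 2 at Trim30d. Reads at these Trim paralogs can be misplaced, as set out below, so their values are uncertain.

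**Figure D1:**
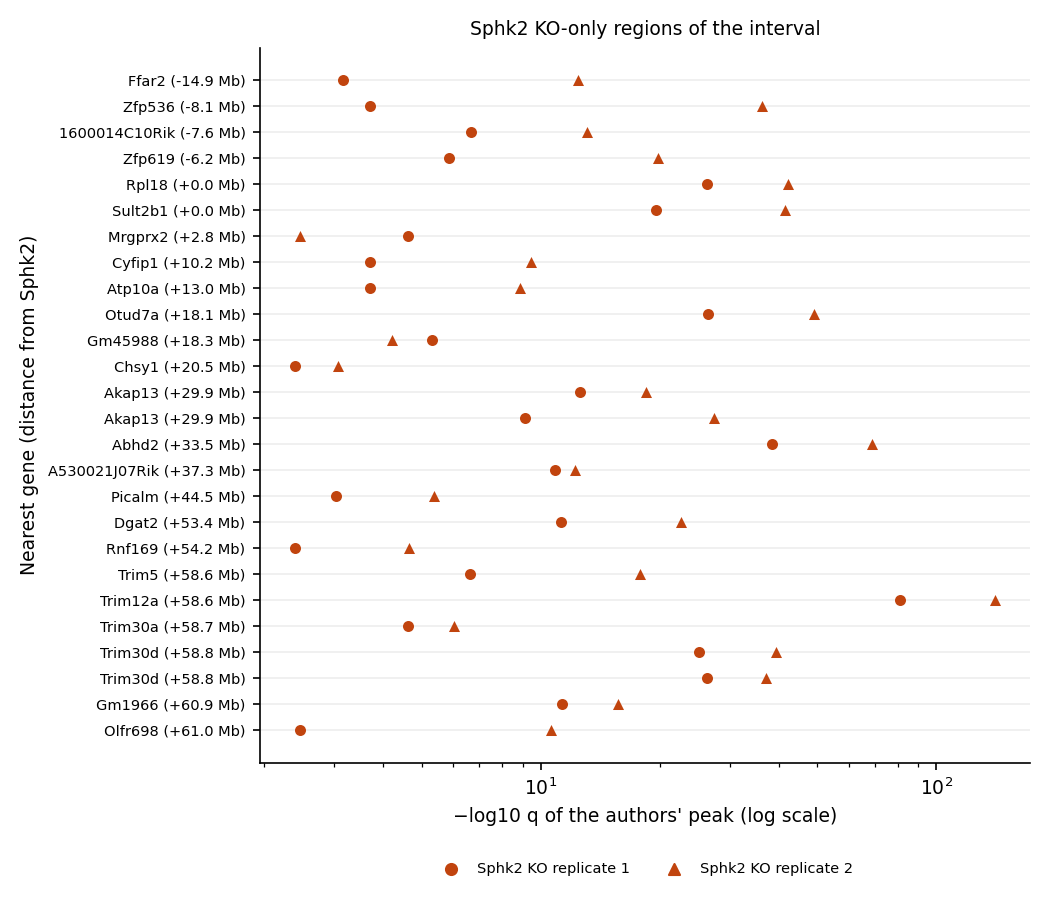
Strength of the 26 KO-only regions of the interval. Each row is a region labelled by its nearest gene and its distance from Sphk2, the x axis is the −log10 q of the authors' peak on a log scale, and the 2 symbols are the 2 KO libraries. The region at Trim12a is the strongest, at 80.8 and 140, and KO replicate 2 lies above KO replicate 1 in all but 2 rows (Mrgprx2 and Gm45988).

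Trim12a had the strongest KO-only region. Its promoter region at chr7:104314428-104316073 had a −log10 q of 80.8 and 140 in the 2 KO libraries and no peak in either WT library. The region at the start of Trim30d, chr7:104507338-104508802, had 25.2 and 39.3, and a region 5801 bp from the end of that gene, chr7:104513036-104513982, had 26.4 and 37.2. All 3 thus had a peak in both KO libraries and in neither WT library.

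At Abhd2, which encodes a lipid hydrolase, an intergenic region 41058 bp from the gene, chr7:79231570-79232759, reached 38.4 and 68.7. An intergenic region near Otud7a, a deubiquitinase gene, chr7:63822039-63822571, reached 26.5 and 49.0. A region inside Sult2b1, the cholesterol sulfotransferase gene next to Sphk2, reached 19.6 and 41.4 and overlaps a RefSeq promoter window of that gene. The median of the 26 KO-only regions was 6.63 in KO replicate 1 and 16.7 in KO replicate 2. These regions were named for their strength, so they stand above it by selection.

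Weaker KO-only regions were found inside Dgat2, the gene for a triacylglycerol-synthesising enzyme, with −log10 q of 11.2 and 22.6, and at 2 sites inside Akap13, with 12.6 and 18.5 at one site and 9.11 and 27.4 at the other. The region at the start of Trim5 had 6.62 and 17.8. The region inside Zfp536 had 3.70 and 36.3, so the 2 KO libraries differed widely there. The weakest were near Chsy1, at 2.39 and 3.07, and inside Rnf169, at 2.39 and 4.65, close to the caller's limit of 1.30.

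Few KO-only regions were at gene ends. Of the 26, 4 lay within 1 kb of an end of a protein-coding gene (15.4%), 12 lay inside genes and 10 between genes. Of all 1369 regions, 356 were that close to a gene end. The 504 called in all 4 libraries had 51.4% within 1 kb of a gene end, and the 64 WT-only regions had 12.5%. Median widths were 566 bp for KO-only regions, 448 bp for WT-only regions and 951 bp for regions called in all 4 libraries.

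The strongest WT-only region lay 66 bp from Gvin1, an interferon-inducible GTPase gene, at chr7:106215317-106215818, where −log10 q was 32.1 in WT replicate 1 and 42.6 in WT replicate 2, with no peak in KO. A narrow region inside Gys1, the muscle glycogen synthase gene, reached 24.7 and 29.8. One near Bcat2, a branched-chain amino acid transaminase gene, reached 20.7 and 19.2. Both genes lie close to Sphk2, below it on the chromosome. Inside Ptpn5, a tyrosine phosphatase gene, the values were 24.6 and 18.4.

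Around Sphk2 itself the accessible sites did not all move the same way. The region over the upstream start, chr7:45717303-45718352, was called in all 4 libraries and stood at percentile 71.6 and 73.9 in WT and 58.8 and 66.7 in KO. Percentiles here are ranks of −log10 q among the 16973 regions called in all 4 libraries, so that lists of unequal length do not enter. The KO libraries were lower without overlap, but the adjusted p from limma was 0.408. The region inside the gene at its second RefSeq start, chr7:45715043-45716683, which also reaches into Rpl18 (a ribosomal protein gene), was KO-only with −log10 q of 26.4 and 42.2. The 2 windows hold 3 and 1 GGGCGG matches, a motif present in 35.7% of the 32851 RefSeq promoter windows. A region at the Car11 and Dbp starts, chr7:45704400-45705339, stood at 41.4 and 40.3 in WT and 43.2 and 31.0 in KO, with overlapping groups and an adjusted p of 0.873 in limma. Inside Dbp, the gene for a circadian transcription factor, chr7:45706859-45708424 rose from percentile 9.59 and 12.6 in WT to 56.6 and 57.7 in KO (difference 1.41, SE 0.224 on the normal-score scale, adjusted p = 0.0014 in limma). Its summit lies 1657 bp from the nearer end of Sphk2.

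Among the regions open in both genotypes, the spread between genotypes was wider in the interval than on the rest of chromosome 7 or the other chromosomes pooled. Its centre did not move. The median size of the KO minus WT difference was 5.02 percentile points over the 504 interval regions, 3.87 over the 641 on the rest of chromosome 7 and 4.48 on the other chromosomes. Taken singly, chromosomes 13 and 9 were above the interval on this measure, at 5.305 and 5.043 points, as was Y with 4 tested regions. The SD of the KO minus WT difference was 11.8 points in the interval, 7.49 on the rest of chromosome 7 and 8.46 on the other chromosomes. The 2 WT libraries differed from each other by a median of 3.92, 4.81 and 4.68 points in the same 3 sets, and the 2 KO libraries by 4.66, 5.06 and 4.84. Differences between libraries of 1 genotype were therefore no larger in the interval than elsewhere. The median signed difference was 0.19 points in the interval and -0.04 on the rest of the chromosome.

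Clear separations were mostly KO-higher. A gap of more than 10 points between the lower KO and the higher WT library was seen at 45 of the 504 regions (8.93%), against 1.72% on the rest of chromosome 7 and 3.03% over all regions. The opposite gap was seen at 21 (4.17%), against 1.87% and 3.32%. Gaps over 20 points favoured KO at 16 interval regions and at 0 on the rest of chromosome 7, and favoured WT at 9 and 4. Counting every non-overlap, 143 regions had both KO libraries above both WT libraries (28.4%) against a background of 22.1%, and 120 had the reverse (23.8%) against a background of 21.3%. With ranks taken within each library's whole list, the counts were 34 (6.75%, background 2.5%) and 271 (53.8%, background 54.2%), because the KO lists are shorter: there the median difference was -6.17 points in the interval and -6.82 over all regions.

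A single value for the whole interval could not pass a test at 2 against 2 libraries, where the smallest two-sided exact permutation p is 0.333. The median whole-list percentile of the interval minus that of the rest of chromosome 7 was -1.69 and -2.53 points in the WT libraries and -1.80 and -1.71 in the KO libraries, so the groups overlapped, with a difference of 0.358 points (exact permutation p = 1.0). With the same regions ranked in every library it was -3.07 and -4.63 in WT and -2.19 and -2.73 in KO, without overlap, a difference of 1.39 points (exact permutation p = 0.333). Equal list lengths gave a difference of 1.87 points (exact permutation p = 0.333). The sign turned in 2 settings, to -0.741 with ranks by fold enrichment and -0.164 without WT replicate 2.

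Region by region, limma called 24 of the 504 regions at an adjusted p under 0.05, or 4.76%, against a background of 0.689% over the 16973 regions. The rest of chromosome 7 had 4 of 641, or 0.624%. KO-higher calls numbered 15 (2.98%, background 0.23%) and WT-higher calls 9 (1.79%, background 0.46%). The interval held 38.5% of the 39 KO-higher calls in the data and 11.5% of the 78 WT-higher calls, but 2.97% of the regions tested. Unadjusted p-values under 0.05 were found at 21.8% of the interval regions, 9.52% of those on the rest of chromosome 7 and 13.2% of all. On the other chromosomes with more than 4 tested regions the share called ran from 0.116% on chromosome 8 to 1.06% on chromosome 10. Of chromosome Y's 4 tested regions, 1 was called.

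The number of calls depends on the peak measure and on single libraries. Ranks by pileup height gave 34 KO-higher and 13 WT-higher calls in the interval (9.33% against 3.17% over all regions), and ranks by fold enrichment gave 2 and 2 (0.794% against 0.0707%). The 15 KO-higher calls became 5 without KO replicate 1 and 7 without KO replicate 2, and the 9 WT-higher calls became 4 without WT replicate 1 and 6 without WT replicate 2, with 2.01% to 3.65% of the interval called against 0.267% to 0.556% of all. Of the 24 regions, 8 were called in each of the 4 fits that left out a library: those at Dbp, Syngr4, Mcee, Prc1, Fsd2, Coa4 and Trim30a and the larger of the pair nearest Gm1966. None of the 24 changed sign in any alternative that gave a value.

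**Figure D2:**
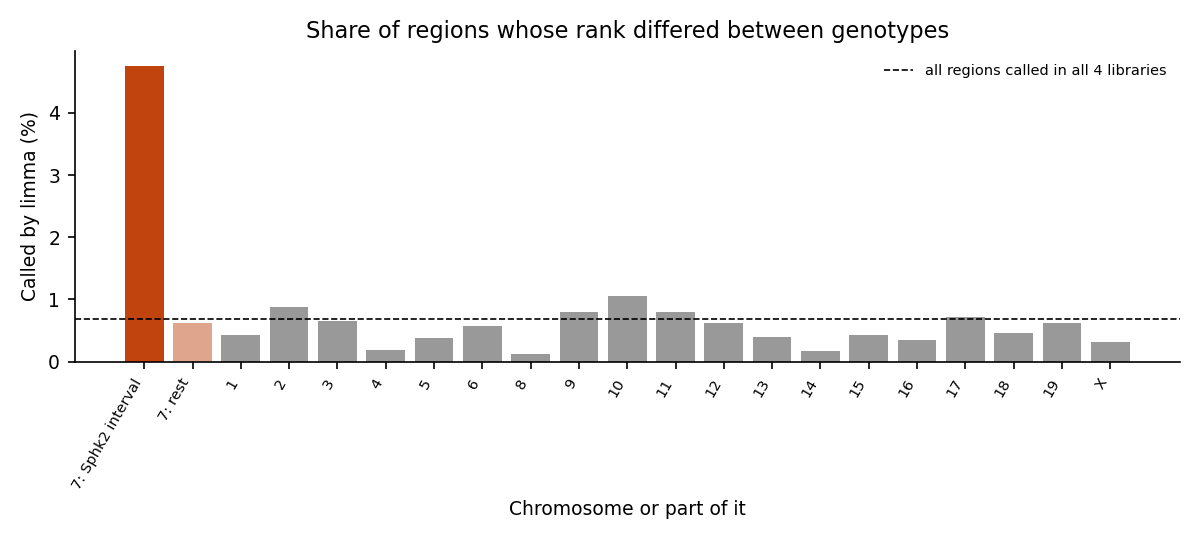
Share of regions called in all 4 libraries that limma called between genotypes, in percent, for the Sphk2 interval, the rest of chromosome 7 and each other chromosome (Y, with 4 tested regions, is not drawn). The dashed line is the 0.689% over all regions, and the interval stands at 4.76%.

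On whole-list percentiles the differences at the called sites were smaller for KO-higher regions, from 3.75 points at Rhog to 31.5 at Syngr4, against 8.23 to 60.7 on the same-region percentiles given for each site. For WT-higher regions they ran from -8.90 points at Trim12c to -49.1 at the smaller region nearest Gm1966, against -10.7 to -43.9. The genotypes did not overlap at any of the 24 on either ranking.

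The KO-higher calls with the lowest p-values included sites at Syngr4 and Mcee. At an end of Syngr4, 0.2 Mb above Sphk2, chr7:45896354-45897674 stood at percentile 19.7 and 25.2 in WT and 79.5 and 86.7 in KO (difference 1.73, SE 0.167, adjusted p = 1.57e-06 in limma). The shared promoter of Mcee, which encodes methylmalonyl-CoA epimerase, and Mphosph10, which encodes a component of the U3 ribosomal RNA processing complex, chr7:64391804-64392958, stood at 68.9 and 67.3 in WT and 97.4 and 95.2 in KO (difference 1.33, SE 0.132, adjusted p = 1.68e-06). Coa4, a cytochrome c oxidase assembly factor gene, had an internal region at chr7:100539202-100540214 at 5.16 and 3.84 in WT and 49.2 and 55.1 in KO (difference 1.75, SE 0.264, adjusted p = 0.000713). At each of these sites both KO libraries were above both WT libraries. Whole-list differences were 31.5, 14.6 and 29.7 points at Syngr4, Mcee and Coa4, against 60.7, 28.2 and 47.7 points on this ranking.

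Cebpa, the transcription factor gene required for granulocyte development, had its start region, chr7:35118142-35119850, at percentile 48.1 and 50.8 in WT and 76.1 and 78.1 in KO (difference 0.756, SE 0.143, adjusted p = 0.00973 in limma). Its −log10 q was 32.4 and 40.2 in WT and 46.6 and 98.8 in KO, so the ordering also held before ranking. A region between genes nearest Klhl25, a cullin-3 ligase adaptor gene, stood at 31.8 and 35.6 in WT and 78.6 and 71.3 in KO (adjusted p = 0.000544). The region over the start of the RefSeq transcript 2900076A07Rik, nearest Fsd2, stood at 40.5 and 27.3 in WT and 86.2 and 74.7 in KO (adjusted p = 0.000118). The genotypes did not overlap at these 3 sites, with differences of 27.6, 41.2 and 46.6 points for Cebpa, Klhl25 and Fsd2, and of 10.7, 18.7 and 22.9 points on whole-list percentiles.

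The gene for the signalling scaffold Gab2 had an internal region at 10.7 and 12.1 in WT and 46.5 and 49.1 in KO (adjusted p = 0.0223 in limma). Inside Abhd2, 2 regions rose, from 17.7 in both WT libraries to 59.4 and 43.6, and from 3.82 and 11.7 to 46.5 and 36.1 (adjusted p = 0.0365 and 0.0348). The start region of Abhd2 itself was at 95.2 and 97.7 in WT and 96.6 and 96.6 in KO, with an adjusted p of 0.98. The sites that separated at this gene, counting the KO-only region below it, were thus away from its start.

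Between Eed, a Polycomb subunit gene, and Picalm, a clathrin assembly gene, 3 regions rose. The one nearest Eed moved from 9.37 and 6.24 to 43.6 and 36.0, the middle one from 34.8 and 38.2 to 61.5 and 68.7, and the one nearest Picalm from 55.1 and 54.5 to 76.2 and 78.9 (adjusted p = 0.0365, 0.0365 and 0.0310 in limma). The start of Eed stood at 90.4 and 90.2 in WT and 91.6 and 90.9 in KO and was not called. Rhog had the smallest called rise in percentile points, from 87.0 and 87.4 to 97.2 and 93.6 (difference 0.580, adjusted p = 0.0462 in limma). Near Ccne1, the cyclin E1 gene, a region inside the lncRNA Gm30771 moved from 66.9 and 68.8 to 87.4 and 82.4 (adjusted p = 0.0365).

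**Figure D3:**
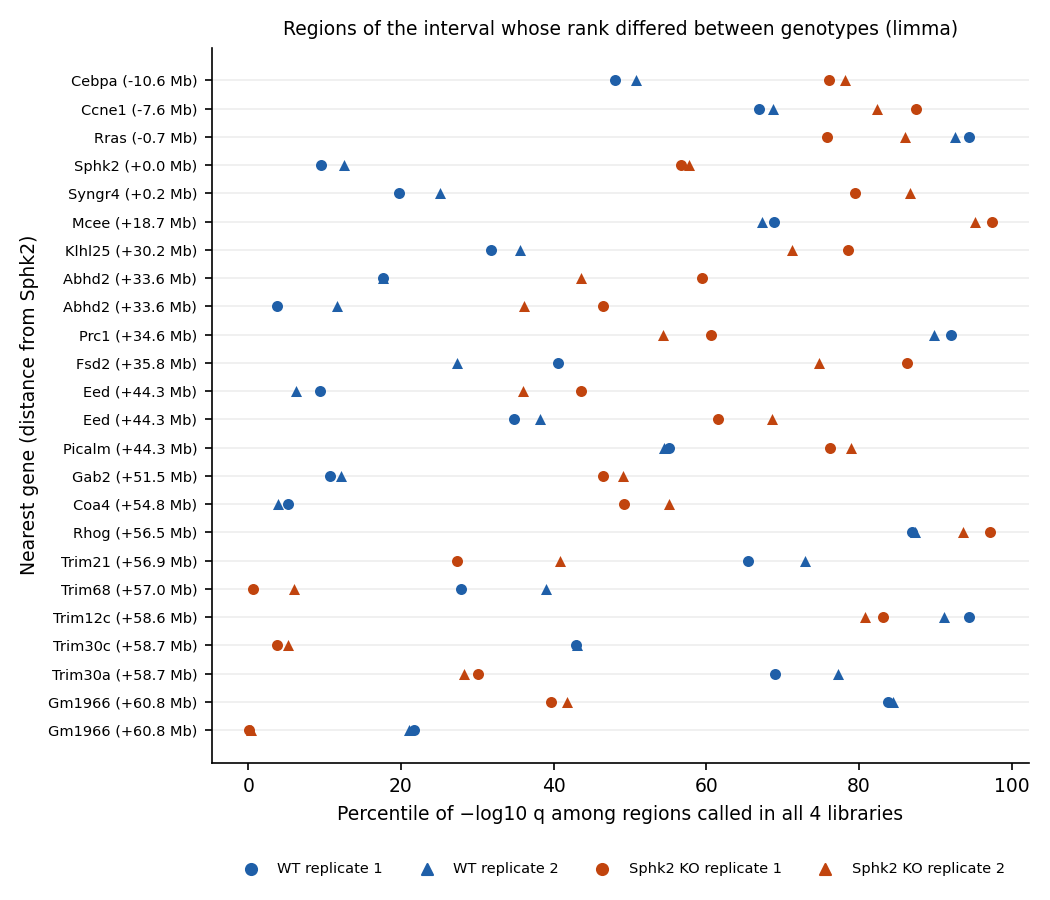
Percentile of −log10 q, among the regions called in all 4 libraries, for the 24 interval regions called by limma. Each row is a region with its nearest gene and distance from Sphk2, the region inside Dbp is labelled Sphk2 as the nearest gene end, blue symbols are the 2 WT and red symbols the 2 KO libraries, and in every row the 2 colours do not overlap; Rras, Prc1 and the last 7 rows, from Trim21 onwards, are WT-higher.

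WT-higher calls included several at Trim genes. Of the 9 WT-higher calls, 5 lay at or inside Trim21, Trim68, Trim12c, Trim30c and Trim30a. The region at the start of Trim21, which encodes a cytosolic antibody receptor, chr7:102565119-102565791, stood at 65.5 and 73.0 in WT and 27.3 and 40.8 in KO (difference -0.923, SE 0.175, adjusted p = 0.00973 in limma). The internal Trim30a promoter, chr7:104445794-104446906, stood at 69.0 and 77.3 in WT and 30.1 and 28.3 in KO (difference -1.17, SE 0.169, adjusted p = 0.000432). Trim30a is a regulator of Toll-like receptor signalling. At both sites the KO libraries lay below the WT libraries without overlap.

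The Trim30c start region moved from 42.9 and 43.1 in WT to 3.76 and 5.21 in KO (adjusted p = 0.00782 in limma), and that of Trim68 from 27.9 and 39.0 to 0.683 and 6.04 (adjusted p = 0.0348). The Trim12c start region moved least, from 94.4 and 91.1 to 83.2 and 80.9 (adjusted p = 0.0458). Its −log10 q was 139 and 129 in WT and 58.8 and 108 in KO. All 3 had a peak in every library, with the KO libraries below the WT libraries.

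The Trim list was chosen with earlier results of these data known, so its shares describe it and are no test. Of the 14 listed genes of the Trim5 and Trim30 family and neighbours, 8 had a gene-end peak in each WT library and 11 in each KO library. The added genes were Trim5, Trim12a and Trim30d, whose start regions were KO-only: 3 of the 11 gene-end regions, against 0.605% of all regions. The other 8 were called in all 4 libraries, of which 4 fell in KO and none rose by limma (0.46% of all tested regions fell), with a median difference of -13.1 points against 0.07 over all regions. The 4 without a call were those of Trim6 (0.75 and 0.24 in WT, 24.3 and 2.88 in KO), Trim34a (66.4 and 69.9, then 57.2 and 47.9), the upstream Trim30a start (72.2 and 79.6, then 60.8 and 69.6) and Trim3 (28.9 and 25.0, then 17.3 and 30.4). Neighbouring paralogs therefore differed in opposite directions: Trim5, Trim12a and Trim30d had a peak in KO only, while Trim12c, Trim30c and the internal Trim30a promoter ranked lower in KO.

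Much promoter sequence was shared among Trim5, Trim12a and Trim12c, and among Trim30a, Trim30c and Trim30d. The Trim5 and Trim12a windows are offset copies, identical at all 241 bases where they overlap. Over the stretch where both windows align, Trim12c was 93.6% identical to Trim5 and 94.6% to Trim12a. The Trim30d window was 93.6% identical to the upstream Trim30a window and 86.2% to the internal one. The Trim21 and Trim68 windows shared no identical run longer than 10 bases with any other aligned Trim window. Reads from near-identical copies can be placed at the wrong copy or dropped, and the mapping filter was not given in the sources used here. The values at the Trim5, Trim12 and Trim30 paralogs are therefore uncertain.

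The motif of 2 GAAA blocks with 2 bases between them was found in 8 of the 14 promoter windows of these Trim genes (57.1%). Over all 32851 windows the share was 3.44%, and over the 1346 windows in the interval 3.64%. The 14 windows include both Trim30a starts, each with the motif, and none for Trim3. The motif was in 3 of the 6 windows under KO-only regions (Trim5, Trim12a and Trim30d). It was also in 3 of the 8 under WT-higher regions (Trim12c, Trim21 and Trim30a). None of the 6 windows under KO-higher regions held it, and 15 of the 357 under regions called in all 4 libraries did (4.20%). The motif was chosen after these regions were known, and a match describes the letters only. The motif stands at both KO-only and WT-higher Trim promoters, but is absent from the windows of Trim30c and Trim68, which were also WT-higher.

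The other WT-higher regions were at Prc1, Rras and an intergenic stretch beyond the Trim cluster. Prc1, the gene for a spindle midzone protein needed for cytokinesis, had its start region at chr7:80294154-80295143 at 92.1 and 89.8 in WT and 60.6 and 54.4 in KO (difference -1.15, SE 0.132, adjusted p = 1.63e-05 in limma). The start region of Rras, a Ras-family GTPase gene 0.7 Mb below Sphk2, was at 94.5 and 92.6 in WT and 75.8 and 86.0 in KO (adjusted p = 0.0312). Of the pair of regions nearest Gm1966, chr7:106528502-106529910 fell from 83.8 and 84.5 to 39.7 and 41.8 (adjusted p = 1.63e-05) and chr7:106550885-106551869 from 21.7 and 21.1 to 0.085 and 0.321 (adjusted p = 0.0283). The 2 KO libraries were close to each other at both of this pair and well below WT.

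The gene lists other than the Trim list had few calls, but beside a background of 0.689% called over all regions, and 4.76% over the interval, this is not a result about those lists. A region without a call is not shown to be equal in the genotypes. Of 28 listed myeloid and leukocyte surface and signalling genes, 16 to 18 had a gene-end peak in each library, and none of the 19 regions called in all 4 libraries passed limma. The nearest to a call was at Relt, a TNF-receptor family gene, at 33.5 and 42.1 in WT and 67.7 and 56.3 in KO (adjusted p = 0.10). Tyrobp, an adaptor of myeloid receptors, was at 77.6 and 69.3 in WT and 74.8 and 72.1 in KO. Cd37, a leukocyte tetraspanin gene, was at 83.0 and 83.3 in WT and 71.4 and 74.6 in KO without a call (adjusted p = 0.24). Of 13 transcription-factor regions called in all 4 libraries, 1 passed, that of Cebpa, while Cebpg beside it was at 89.0 and 88.3 in WT and 82.4 and 89.2 in KO.

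None of the 12 regions of lipid and energy metabolism genes called in all 4 libraries passed limma, but 2 regions of that list were WT-only, between Gys1 and Ftl1 and at Fah, which encodes a tyrosine-breakdown enzyme, both at a −log10 q near 6 in WT. The start region of Dgat2 was at 76.4 and 74.4 in WT and 81.5 and 84.1 in KO, with an adjusted p of 0.39. Of 13 chromatin and cell-cycle regions, 1 passed, that of Prc1. The 10 regions of ribosomal and housekeeping genes called in all 4 libraries had a median difference of 0.06 points and no call, and the 11th was the KO-only region shared by Sphk2 and Rpl18. Interferon-linked genes had 2 regions called in all 4 libraries with no call, such as Isg20 (69.0 and 72.6 in WT, 72.9 and 74.3 in KO), and 1 WT-only region at Gvin1. Of 7 imprinted genes of the Prader-Willi region, Ube3a was open in all 4 libraries without a call and Mkrn3 was WT-only at 5.65 and 1.81. The 14 listed genes silent in myeloid cells had no peak at their ends in any library.

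By position, KO-only regions and KO-higher calls were spread over the interval on both sides of Sphk2. WT-higher calls were less spread: 5 of the 9 lay 55 to 60 Mb above Sphk2 and 2 lay 60 to 64.29 Mb above it. Those at Rras and Prc1 were the only others. The side below Sphk2 had 308 regions with 4 KO-only (1.30%), and of its 150 tested regions 3 were KO-higher (2.00%) and 1 was WT-higher (0.667%). The side above had 1061 regions with 22 KO-only (2.07%), and of its 354 tested regions 12 were KO-higher (3.39%) and 8 WT-higher (2.26%). Over all regions these shares were 0.605% KO-only, 0.23% KO-higher and 0.46% WT-higher. Below 30 Mb, 518 regions had 1 KO-only region, and above 110 Mb, 711 regions had 2, with 0 KO-higher calls on either side. KO-only regions ran from 30.8 to 106.8 Mb and limma calls from 35.1 to 106.6 Mb. The 4 calls on the rest of chromosome 7 were all WT-higher, at Selenow, Arntl, Gde1 and Irf7.

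In windows of 5 Mb laid outward from Sphk2, 13 of the 17 windows of the interval held a KO-only region (76.47%), against 2 of 14 on the rest of the chromosome (14.29%). A limma call was found in 11 of 17 (64.71%) and 4 of 14 (28.57%). The window 55 to 60 Mb above Sphk2, which holds the Trim cluster, had the most, with 5 KO-only among 134 regions, and 1 KO-higher and 5 WT-higher calls among the 57 tested. The windows 30 to 35 and 40 to 45 Mb above Sphk2 had 3 KO-higher calls each, among 42 and 21 tested regions. The densest KO-only share was 5 to 10 Mb below Sphk2, with 3 of 29 regions (10.3%), although 29 regions are few. The 4 windows of the interval without a KO-only region were 0 to 5 Mb below Sphk2, which adjoins the gene and held 166 regions, the most of any window, 15 to 15.71 Mb below it (36 regions), and 5 to 10 Mb and 45 to 50 Mb above it (38 and 73 regions).

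**Figure D4:**
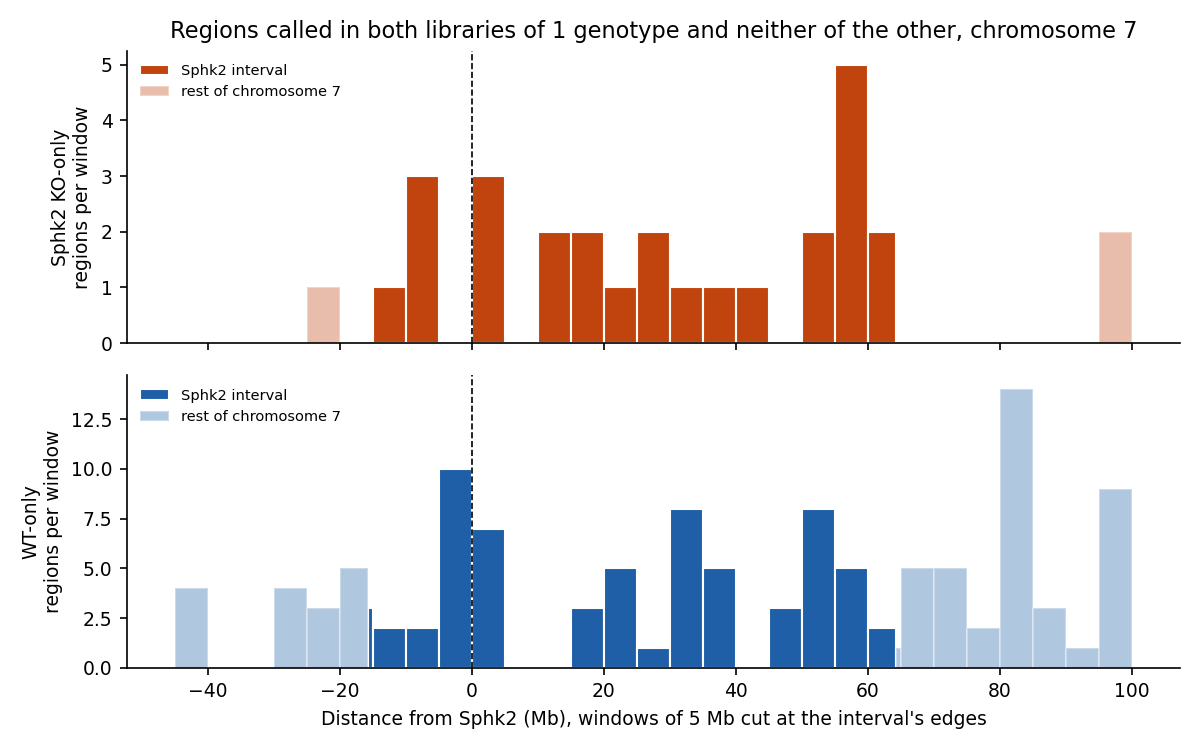
Number of KO-only regions (top) and WT-only regions (bottom) on chromosome 7 in 5 Mb windows by distance from Sphk2 (dashed line), with the interval in dark and the rest of the chromosome in pale bars. KO-only bars are found in 13 of 17 windows of the interval and 2 of 14 outside it, while WT-only bars are found throughout.

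The median signed difference in a window ran from -3.02 to 4.56 points in the interval and from -3.70 to 3.62 on the rest of the chromosome, with both signs in each. The 5 windows from 20 to 45 Mb above Sphk2 all had positive medians, of 3.89, 2.01, 4.26, 1.51 and 4.56 points. The window 55 to 60 Mb above it had the lowest. Of the 30 nearest neighbours of the KO-higher regions among regions called in all 4 libraries, one on each side at a median of 25.5 kb, 28 were not called, 2 were KO-higher and 0 were WT-higher, with a median difference of -0.04 points. WT-higher regions had 18 such neighbours, of which 12 were not called, 6 were WT-higher and 0 were KO-higher, with a median difference of -8.24 points. The called neighbours are pairs of called regions counted from both sides: the 2 inside Abhd2, Trim21 and Trim68, Trim30c and Trim30a, and the pair nearest Gm1966. An uncalled region nearest Gm38525 was also counted for both Trim12c and Trim30c. The -8.24 points include the called pairs, and the uncalled neighbours of WT-higher regions ran from -12.53 to 14.46 points. Of the WT-higher regions 6 of 9 were within 1 kb of a gene end, and of the KO-higher regions 5 of 15, against 51.4% of all 504 tested.

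**Figure D5:**
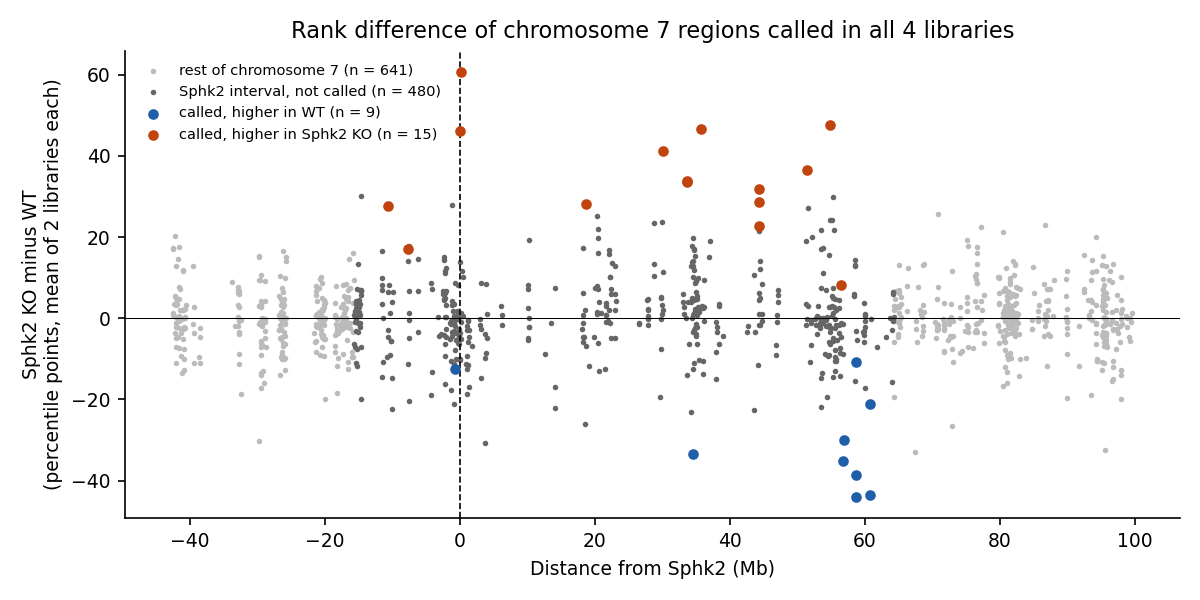
KO minus WT difference in percentile, each genotype the mean of 2 libraries, for every chromosome 7 region called in all 4 libraries by distance from Sphk2 (dashed line). Pale points are the 641 regions on the rest of the chromosome, dark points the uncalled and coloured points the 24 called regions of the interval, which run from -43.9 to 60.7 points.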

How the data were processed

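ATAC-seq was measured in 2 WT and 2 Sphk2 KO libraries. Per the submitters' processing notes, reads were trimmed with cutadapt, aligned with BWA to mm10 and peaks called with MACS2. Per the file headers, MACS 2.1.1.20160309 called peaks in each library on its own at a q-value of 0.05. Whether reads were shifted for Tn5 or filtered for mapping quality was not given in the sources used here. The deposited measures used were the pileup height, a signal value, the −log10 q, and the fold enrichment, a ratio over the local background. All were taken as the authors' caller gave them. Read counts per region were not used, so no count model was run.

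Peaks were merged at 1 bp of overlap, and a region took its best −log10 q in each library. Percentiles were ranks of that value within the library's whole list or among the 16973 regions called in all 4 libraries. limma 3.58.1 (lmFit and eBayes with trend, R 4.3.3) was run on normal scores of the second kind of rank over all 16973 regions, with Benjamini-Hochberg adjustment at 0.05; the fit leaves 2 residual degrees of freedom before moderation. It was tested on simulated data. Exact two-sided permutation tests went through every assignment of the libraries to genotypes (NumPy 2.4.6). Ranks for the percentiles used SciPy 1.17.1, and promoter windows were aligned with Biopython 1.88, without counting overhanging ends. Gene ends and promoter windows came from RefSeq GRCm38.p6, 21896 protein-coding genes and 32851 windows.

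A region is called by the protein-coding gene whose end is nearest to its mean summit, and distances to genes are taken from there. Regions were named when they lay within 10 kb of Sphk2, were among the 12 strongest KO-only or WT-only regions, had 1 of the 10 widest gaps per direction, passed limma, or lay within 1 kb of an end of a listed gene. Weaker KO-only regions outside those 12 were named after their values were seen. The interval, gene lists, motifs and tests were chosen with earlier results of these data known. Alternatives were a −log10 q of at least 5, equal list lengths, 250 bp around summits, other peak measures, 10 Mb windows, a replicate block and leaving out each library.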

Additional observations from a re-analysis of the deposited data

How the results depend on the processing

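With 2 libraries per genotype, peak lists of unequal length and no read counts per region, presence and rank cannot be turned into a change in reads. Requiring a −log10 q of at least 5 gave 162 regions with WT ranks above KO and 5 WT-higher limma calls. In that setting limma called 4.01% of the tested interval regions in either direction, against 0.547% over all regions. Equal list lengths gave 42 KO-only and 30 WT-only regions, and 137 and 106 regions with KO or WT ranks above the other. Ranking the same regions in every library gave 143 and 120. Ranks by pileup height gave 34 KO-higher limma calls, log2 pileup height gave 47 and 23, and ranks by fold enrichment gave 2 and 2. In that order, limma called 9.33%, 13.9% and 0.794% of the tested interval regions, against 3.17%, 5.61% and 0.0707% over all regions. Leaving out 1 library at a time gave 36 to 193 KO-only and 67 to 259 WT-only regions, 37 to 127 and 321 to 419 regions with KO or WT ranks above, and 5 to 15 KO-higher and 4 to 8 WT-higher limma calls. The difference in median percentile was -0.741 with ranks by fold enrichment and ran from -0.164 (without WT replicate 2) to 0.71 when a library was left out. Fewer libraries and shorter lists change the counts by construction, and for the peak measures the cause was not tested. Of the 24 limma calls, 24 were kept with ranks by pileup height, 24 with log2 pileup height, 21 around summits, 18 when peaks had to reach a −log10 q of 5, 18 with equal list lengths, 4 with ranks by fold enrichment, and 9 to 15 with a library left out. Of the 10 Mb windows of the interval, 9 of 9 had a KO-only region.

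Libraries with the same replicate number did not deviate together (correlation 0.013 over 16973 regions). The labels do not say whether such libraries were collected or processed together, and a correlation of ranks cannot settle it. With the replicate block limma made 22 KO-higher and 11 WT-higher calls in the interval, or 6.55% of its tested regions against 1.42% of all. The difference in median percentile was 0.358 (exact sign-flip p = 1.0, smallest possible 0.5).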
